A study of Mus musculus with 6 samples.

Results

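The brain extracellular matrix and TIMP set comprised 10 genes, taken by symbol from a deposited table of 55367 gene symbols. They were the matricellular genes Sparcl1 and Sparc, the proteoglycan genes Bcan, Ncan, Cspg5 and Ptprz1, the link protein gene Hapln1, and the metalloprotease inhibitor genes Timp2, Timp3 and Timp4. All 10 were found. They were measured in 6 Smart-seq2 libraries of tdTomato-positive cells, described in the labels as neurons, sorted from the dentate gyrus of the mouse hippocampus. The genotype of every library was TRAP2;Ai9 (Fos-iCreERT2; Rosa26-LSL-tdTomato), in which a tamoxifen-dependent Cre recombinase made where Fos is active switches on a red reporter for good. Fos activity, and not a neuronal promoter, sets which cells are labelled. All mice had gone through learned helplessness, exposure to stress that cannot be escaped. The NR group (LH+ NR, 3 libraries) did not run and the Run group (LH+ Run, 3 libraries) ran voluntarily for 28 days. The age of the mice and the numbers of cells and animals per library are not stated in the labels, so p-values measure only the spread between libraries, which may be technical.

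The brain's extracellular matrix is built on hyaluronan, a long sugar chain. Lecticans such as brevican (Bcan) and neurocan (Ncan), proteoglycans with chondroitin sulfate side chains, bind to hyaluronan, and link proteins such as Hapln1 fasten that bond. Astrocytes release many of these components, and the matrix is densest in the perineuronal nets around some neurons. Matricellular proteins act on cells and synapses without serving as scaffold, and TIMPs, the tissue inhibitors of metalloproteinases, block the enzymes that cut the matrix.

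Values were FPKM, fragment counts scaled by transcript length and by library size, so levels of different genes can be set side by side. Summed FPKM per library lay between 473786 and 492021, and 5426 to 7355 genes reached FPKM 1. The labels place the libraries in 1 batch. As a check of the labelled cell type, no granule neuron marker of 10 reached FPKM 1 in all 6 libraries, and in 3 of them every value was below 1. It was reached in all 6 by 3 of 9 immature granule neuron markers, 4 of 10 general neuron markers and none of 10 interneuron markers. Of other cells, 9 of 12 astrocyte, 4 of 10 endothelial and 3 of 10 oligodendrocyte markers reached it. So did 3 of 11 mural and fibroblast and 1 of 10 microglial markers, but none of 8 oligodendrocyte precursor markers. In material that may mix several cells, fewer cells of a type and less RNA per cell cannot be told apart. Of 12 genes used by every cell 2 were listed at 0 in at least 1 library, so a 0 is given here as listed and not as absence.

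Sparcl1 dominated the set, and the inhibitor Timp2 and the link protein Hapln1 were at its lower end. Of a library's summed FPKM the 10 genes together made up 0.119% to 0.383%, and Sparcl1 alone held 57.0% to 65.6% of that share. FPKM of at least 1 in all 6 libraries was reached by 7 members. Ncan fell short in 1 library, Timp2 in 3 and Hapln1 in 3. By mean FPKM over the 6 libraries the order was Sparcl1, Bcan, Timp3, Sparc, Cspg5, Timp4, Ptprz1, Ncan, Timp2 and Hapln1, with the whole-table rank of the mean falling from 64 for Sparcl1 to 9662 for Hapln1. On the log2(FPKM + 1) scale, used for all log2 values here, Sparcl1 lay above Bcan by 2.53 ± 0.52 (SD over 6 libraries) and in 6 of 6 libraries. Ncan lay above Timp2 by 2.09 ± 2.02 and in 5 of 6. For the 7 other pairs of neighbours in that order, the mean difference was smaller than its SD between libraries.

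**Figure D1:**
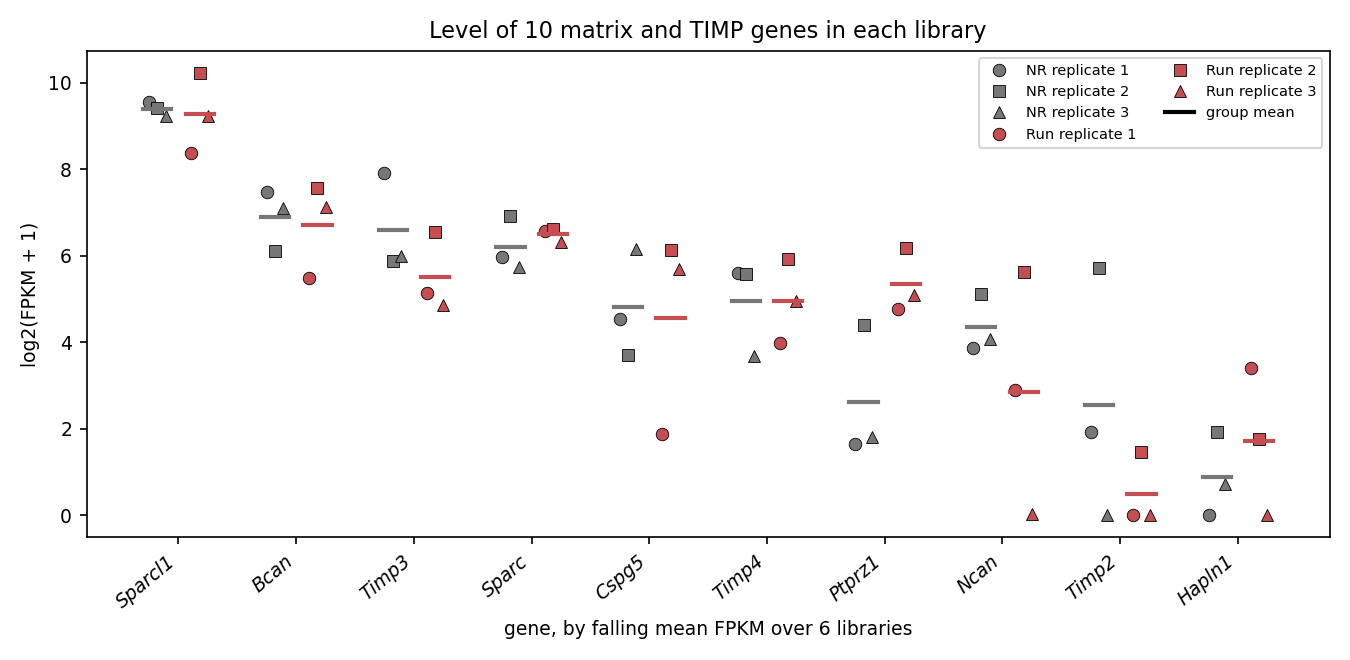
Level of each of the 10 genes on the log2(FPKM + 1) scale (vertical axis), by gene (horizontal axis). Each point is 1 library, grey for NR and red for Run, with a bar at the group mean; Sparcl1 lies highest in every library, the groups overlap for 9 genes, and Ptprz1 lies higher in each Run library (26.2 to 71.4 FPKM) than in any NR library (2.12 to 20.1 FPKM).

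Between runners and non-runners, no member passed. By limma's test with Benjamini-Hochberg adjustment over 6155 tested genes, 0 of the 10 members had an adjusted p under 0.05, against 0% of all tested genes. At an unadjusted p under 0.05 there were 0 members, against 4.94% of tested genes (304). When a log2 size of 1 was also required, 2.42% of tested genes were higher in Run and 2.47% lower, with 0 members among either. All 10 passed the filter on low values, FPKM of at least 1 in at least 3 libraries. The median Run minus NR difference was -0.15 over the 10 members, with 3 positive and 7 negative, and -0.03 over all tested genes, of which 48.9% were positive. For 1 member, Ptprz1, the groups' values did not overlap, as was the case for 8.95% of tested genes (551), 4.76% with Run above as for Ptprz1 and 4.19% with Run below. The residual SD between libraries of a group had a median of 1.13 over the members and 1.98 over all tested genes. The 95% confidence intervals of all 10 differences included 0 and were wide, the narrowest running from -1.25 to 1.00 (Sparcl1), and 8 of the 10 held differences of both 1 and -1.

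**Figure D2:**
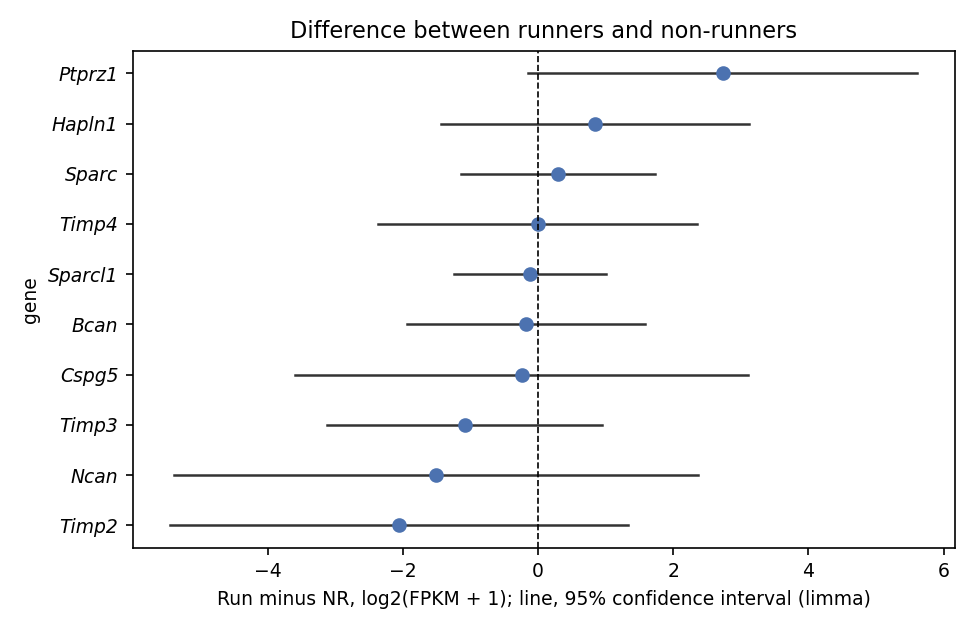
Run minus NR difference of each gene on the log2(FPKM + 1) scale (horizontal axis), by gene (vertical axis). Points are limma estimates and lines 95% confidence intervals; every interval crosses 0, from Ptprz1 at 2.73 (-0.15 to 5.61) to Timp2 at -2.06 (-5.44 to 1.33).

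The matricellular pair were among the steadier members. Sparcl1 (chromosome 5, 104079111 to 104113733, mm10) encodes hevin, which astrocytes secrete and which promotes the formation of excitatory synapses. It had 752, 688 and 599 FPKM across NR replicates 1 to 3 and 333, 1202 and 601 across Run replicates 1 to 3. The lowest and the highest value were both in Run, and the groups overlapped. The difference was -0.12 ± 0.48 (SE; limma adjusted p = 0.983), and it turned to 0.33 without Run replicate 1.

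Sparc (chromosome 11, 55394500 to 55423183) encodes a related secreted protein, known to counter hevin's synapse-promoting action and made in brain by endothelial cells and microglia as well as astrocytes. Its values were 61.6, 119 and 52.2 FPKM across NR and 93.7, 96.8 and 79.0 across Run. The Run values lay within the range of the NR values, and the difference was 0.30 ± 0.60 (SE; limma adjusted p = 0.981), or 0.061 without NR replicate 3 and 0.65 without NR replicate 2. Sparc had the narrowest range of the 7 members detected in every library, with the highest value 2.28 times the lowest. Endothelial markers (4 of 10 at FPKM 1 in all 6 libraries) summed to 913 to 2434 FPKM across NR and 850.5 to 1763 across Run. Microglial markers (1 of 10) summed to 55.0 to 572 and 179 to 927, and the part of either cell in the Sparc values was not tested. Sparcl1 exceeded Sparc in 6 of 6 libraries, by 2.99 ± 0.72 (SD).

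Among the proteoglycans, Bcan (chromosome 3, 87987531 to 88000230) was the most abundant. It had 177, 68.0 and 138 FPKM across NR and 43.5, 189 and 138 across Run, with the lowest and the highest library both in Run. Its difference was -0.18 ± 0.74 (SE; limma adjusted p = 0.984), turning to 0.11 without NR replicate 1 and to 0.44 without Run replicate 1. Ncan (chromosome 8, 70093085 to 70120873), the lectican that prevails in the developing brain, had 13.7, 33.8 and 15.8 FPKM in NR. In Run it had 6.40, 48.7 and 0.0104, so its near-zero library and its highest library were in the same group. Ncan differed by -1.51 ± 1.64 (SE; limma adjusted p = 0.978) and by -0.09 without Run replicate 3. Bcan exceeded Ncan in 6 of 6 libraries, by 3.21 ± 2.11 (SD).

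Cspg5 (chromosome 9, 110243783 to 110262576), the membrane proteoglycan neuroglycan C, spread more widely within groups. It had 22.2, 12.1 and 70.8 FPKM across NR and 2.66, 69.0 and 50.9 across Run. The highest value was 26.7 times the lowest, and both groups held low and high libraries. The difference was -0.24 ± 1.42 (SE; limma adjusted p = 0.989), but 0.44 without NR replicate 3 and 1.11 without Run replicate 1.

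Ptprz1 (chromosome 6, 22875502 to 23052916) was the member with the largest difference. It encodes a receptor tyrosine phosphatase of astrocytes and oligodendrocyte precursors, whose shed or spliced outer part, phosphacan, is a matrix proteoglycan. It had 2.12, 20.1 and 2.49 FPKM across NR and 26.2, 71.4 and 33.1 across Run. Every Run library was above every NR library, with NR replicate 2 close below the lowest Run value. Means were 8.23 ± 10.3 across NR and 43.6 ± 24.4 across Run (SD, n = 3 each), and the log2 difference was 2.73 ± 1.22 (SE). It did not pass (limma adjusted p = 0.978). The exact 2-sided permutation test over libraries gave p = 0.1, the smallest that 3 libraries against 3 allow. The size of the Ptprz1 difference exceeded that of 89.9% of tested genes, a share that picking the largest of 10 members raises by itself.

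Ptprz1 was set beside the marker lists of cells known to make it. Of 8 oligodendrocyte precursor markers none reached FPKM 1 in all 6 libraries, and their summed level was 1.09 to 56.5 FPKM across NR and 14.4 to 50.9 in Run. Olig1 had 0, 0.0625 and 18.5 FPKM across NR and 13.8, 17.7 and 38.8 across Run. Lhfpl3 lay the other way, with 37.9 FPKM in NR replicate 3 and at most 0.0172 elsewhere, and C1ql1 had 8.34 FPKM in NR replicate 1 and was listed at 0 elsewhere. Gpr17 had 14.7 FPKM in Run replicate 2 and at most 0.578 elsewhere. Sox10 had 12.1 FPKM in Run replicate 3 and was listed at 0 elsewhere. Cspg4 was above 0 only in NR replicate 2. Olig2 was listed at 0 throughout, and Pdgfra was at most 0.00780. The mean level of the 12 astrocyte markers was 6.74, 6.71 and 7.15 across NR and 5.98, 7.11 and 6.41 across Run on the log2 scale. The part of these cells in the Ptprz1 values was not tested.

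Ptprz1 binds the growth factors pleiotrophin and midkine and the adhesion molecule contactin-1. Pleiotrophin (Ptn) was abundant, at 314, 194 and 198 FPKM across NR and 146, 259.6 and 192 across Run, and midkine (Mdk) had 83.0, 42.5 and 37.1 across NR and 34.3, 21.8 and 149 across Run. Both overlapped between the groups. Contactin-1 (Cntn1) had 1.01, 40.1 and 22.0 FPKM across NR and 0.527, 0.203 and 0.207 across Run, so that every Run library was below every NR library. Its difference was -3.25 ± 1.29 (SE; limma adjusted p = 0.965), which did not pass. Cntn1 met the filter on low values only through the NR libraries.

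The link protein gene Hapln1 (chromosome 13, 89539796 to 89611652) was barely detected. It had 0, 2.77 and 0.637 FPKM across NR and 9.57, 2.40 and 0 across Run, and each group held a library listed at 0. The difference was 0.85 ± 0.96 (SE; limma adjusted p = 0.978), or 0.0074 without Run replicate 1. Of other genes known from perineuronal nets, Bcan, Ncan and Ptprz1 had the higher values given above. The lectican gene Acan, the link protein gene Hapln4 and the parvalbumin gene Pvalb, a marker of the interneurons that nets most often surround, were listed at 0 in all 6 libraries, which without read counts does not show absence. Tenascin-R (Tnr), which joins lecticans together, had 7.33 FPKM in NR replicate 2 and 3.34 in Run replicate 2 and was listed at 0 in the other libraries.

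The 3 inhibitors lay at different levels. Timp3 (chromosome 10, 86300372 to 86349506), the TIMP that binds to the matrix itself, had 240.1, 57.7 and 63.0 FPKM across NR and 34.5, 92.0 and 27.9 across Run. NR replicate 1 stood above all other libraries. The difference was -1.08 ± 0.86 (SE; limma adjusted p = 0.978), or -0.42 without NR replicate 1. In that library the summed level of 11 mural and fibroblast markers was 1468 FPKM, against 516 and 499 in the other NR libraries and 317 to 743 in Run, and 3 of the 11 reached FPKM 1 in all 6 libraries. Most of that sum was the contractile gene Acta2, with 1015 FPKM in NR replicate 1 and 149.6 to 457 elsewhere. Tagln was also highest there, at 342 FPKM against 7.72 to 192 elsewhere. Rgs5 and Vtn were not: Rgs5 had 81.1, 90.7 and 36.6 FPKM across NR and 152, 78.9 and 93.7 across Run, and Vtn had 0.0375 in NR replicate 1 against 74.5 and 80.3 in Run replicates 1 and 2. Mural cells are a known source of Timp3, and their part in this value was not tested.

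Timp4 (chromosome 6, 115241892 to 115252205), the TIMP of most restricted expression, known from brain and heart, had 47.6, 46.9 and 11.8 FPKM across NR and 14.8, 59.4 and 30.0 across Run. The group means were nearly equal, at 35.4 ± 20.5 and 34.7 ± 22.7 FPKM (SD, n = 3 each). The difference was -0.0049 ± 0.996 (SE; limma adjusted p = 0.999), with a 95% confidence interval of -2.36 to 2.35, and it ranged from -0.64 to 0.48 when libraries were left out in turn. Timp3 exceeded Timp4 in 5 of 6 libraries, by 1.10 ± 1.03 (SD).

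Timp2 (chromosome 11, 118301069 to 118355740), which takes part in activating the gelatinase MMP2 as well as inhibiting metalloproteinases, had 2.77, 51.5 and 0 FPKM across NR and 0, 1.75 and 0 across Run. A single library, NR replicate 2, carried most of its signal. The difference was -2.06 ± 1.43 (SE; limma adjusted p = 0.978) and -0.47 without NR replicate 2. Timp1, the inducible member of the family, was listed at 0 in all 6 libraries. Timp2 was below Timp3 in every library.

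The loci of Timp3 and Timp4 lie inside synapsin genes on the opposite strand, and the annotation has exons of each TIMP gene overlapping exons of its host. The sources used here do not say whether reads were counted by strand, so reads of such overlaps cannot be told apart. Syn3, the host of Timp3, was listed at 0 in all 6 libraries. Syn2, the host of Timp4, had 12.7, 10.7 and 23.2 FPKM across NR and 0.381, 16.3 and 0 across Run. In Run replicate 3, where Syn2 was listed at 0, Timp4 had 30.0 FPKM.

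Across the libraries the members shared part of their ups and downs. Of the 7 members detected in every library, 7 lay above their own mean in Run replicate 2, which held the highest value of 4. In Run replicate 1, 5 of the 7 lay below their own mean, and it held the lowest value of 3. NR replicate 3 likewise had 5 of the 7 below their own mean, with the lowest value of 2. After centring each gene on its mean over 6 libraries, the mean of the 7 was 1.00 in Run replicate 2 and -0.86 in Run replicate 1, and -0.35 to 0.07 in NR. The spread of this mean within Run was therefore wider than within NR. The 7 genes come from the same libraries and are not replicates, and these counts were not made for other genes. The mean log2 level of the astrocyte markers was also lowest in Run replicate 1 (5.98), and second highest in Run replicate 2 (7.11), after NR replicate 3 (7.15). Their order depended on the measure. By summed FPKM, Run replicate 2 was highest (5446) and NR replicate 2 lowest (2648), with Run replicate 3 at 2871 and Run replicate 1 at 2881. The part of astrocytes in the pattern was not tested.

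**Figure D3:**
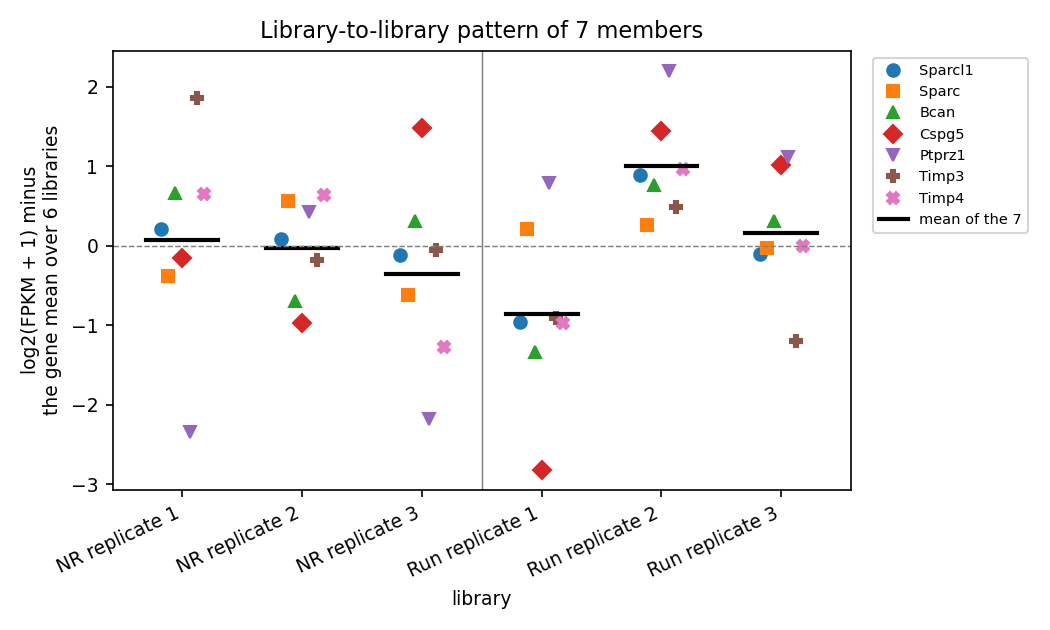
Level of the 7 members detected in every library, each as log2(FPKM + 1) minus its mean over the 6 libraries (vertical axis), by library (horizontal axis). Symbols are genes and black bars their mean; the bar is highest in Run replicate 2 (1.00) and lowest in Run replicate 1 (-0.86), and Ptprz1 departs from the others in NR replicates 1 and 3.

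The likeness of profiles was measured as the mean absolute difference of centred log2 values over the 6 libraries. Sparcl1 and Timp4 were nearest to each other, at 0.39. Bcan (0.43), Timp3 (0.59) and Sparc (0.58) were also nearest to Sparcl1. Cspg5 was nearest to Bcan at 0.86, and Ptprz1 lay farthest, 1.22 from its nearest member, Sparc. Among 1744 other genes detected in every library, the nearest to the mean of the 7 were Rnf5 (0.14), Commd3 (0.21), Ech1 (0.22), Gm7618 (0.23) and Echs1 (0.23), against a median of 0.74 over all 1744. Rnf5, a membrane-bound ubiquitin ligase gene, had 125, 108 and 66.7 FPKM across NR and 56.7, 201 and 137 across Run.

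Promoter sequences, 250 bases before to 50 after the start in RefSeq (GRCm38.p6, the assembly also called mm10), were at hand for 8 of the 10 members, without Sparcl1 and Cspg5. Those of Timp4 and Bcan are shown because their values, with those of Sparcl1, were most alike across libraries, and that of Ptprz1 because its groups did not overlap. Each reads 5′ to 3′ along the gene's strand, and capitals mark motifs searched on both strands. The motifs were the TATA-type run TATAA, the GC box with the letters GGGCGG, the CCAAT box, and the AP-1 motif of Fos and Jun proteins with the letters TGANTCA.
Timp4 (chr6:115252156-115252455, minus strand): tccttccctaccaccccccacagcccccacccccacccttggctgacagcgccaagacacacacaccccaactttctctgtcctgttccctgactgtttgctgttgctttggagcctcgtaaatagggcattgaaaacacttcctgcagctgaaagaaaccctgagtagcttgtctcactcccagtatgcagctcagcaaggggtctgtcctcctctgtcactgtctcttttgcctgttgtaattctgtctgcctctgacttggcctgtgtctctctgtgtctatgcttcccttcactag
Bcan (chr3:88000307-88000606, minus strand): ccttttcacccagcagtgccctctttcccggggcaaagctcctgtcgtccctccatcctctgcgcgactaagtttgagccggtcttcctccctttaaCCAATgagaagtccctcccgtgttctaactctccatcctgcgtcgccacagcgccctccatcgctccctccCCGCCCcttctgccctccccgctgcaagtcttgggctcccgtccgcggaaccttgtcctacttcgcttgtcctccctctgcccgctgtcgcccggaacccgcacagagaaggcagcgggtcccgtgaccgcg
Ptprz1 (chr6:22875252-22875551, plus strand): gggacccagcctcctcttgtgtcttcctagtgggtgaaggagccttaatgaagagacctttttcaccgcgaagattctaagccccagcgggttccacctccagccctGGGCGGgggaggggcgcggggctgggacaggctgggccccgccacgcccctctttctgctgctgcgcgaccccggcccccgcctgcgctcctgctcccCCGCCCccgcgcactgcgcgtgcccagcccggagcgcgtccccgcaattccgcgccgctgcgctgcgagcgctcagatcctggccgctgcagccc

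These windows differed in composition. The Ptprz1 window was 71.7% G and C with 29 CpG dinucleotides and 2 GC boxes. The Bcan window was 64.0% G and C with 24 CpG, 1 GC box and 1 CCAAT. The Timp4 window, at 53.3%, held 2 CpG and none of the motifs. Over all 32851 windows of this length the medians were 52.7% and 7 CpG. The GC box occurred in 5 of the 8 member windows and in 35.7% of all windows, TATAA in 2 and 24.9%, and CCAAT in 2 and 37.4%. TGANTCA was in none of the 8 and in 7.81% of all.

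Other genes of matrix biology were read from 10 lists, of whose 130 symbols the table held 126. Of these 10 (7.94%) reached FPKM 1 in all 6 libraries, against 3.16% of the whole table, which also lists pseudogenes and non-coding genes. Of the 126, 44 were below 1 in every library. Of 37 tested, 13 had a positive and 24 a negative difference, with a median of -0.14. By limma 0 of the 37 passed. The 3 (8.11%) with an unadjusted p under 0.05, against 4.94% of all tested genes, were also the 3 whose groups did not overlap, against 8.95%. They were Cntn1 and a pair of genes from chondroitin sulfate synthesis. Each of the 3 reached FPKM 1 only in the group where it was higher, and so passed the filter on low values through that group alone. Fam20b, a kinase gene acting on the proteoglycan linker sugar, was listed at 0 in all NR libraries and had 8.61, 14.1 and 6.18 FPKM in Run. Slc35b2, which carries the sulfate donor into the Golgi, had 90.1, 48.9 and 45.8 across NR and at most 0.0390 across Run. Both had a limma adjusted p = 0.244. Of the 6 tested genes of that list 2 differences were positive, among them Chpf2 of chain elongation, with 0, 2.06 and 0 FPKM across NR and 0, 4.49 and 11.6 across Run.

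**Figure D4:**
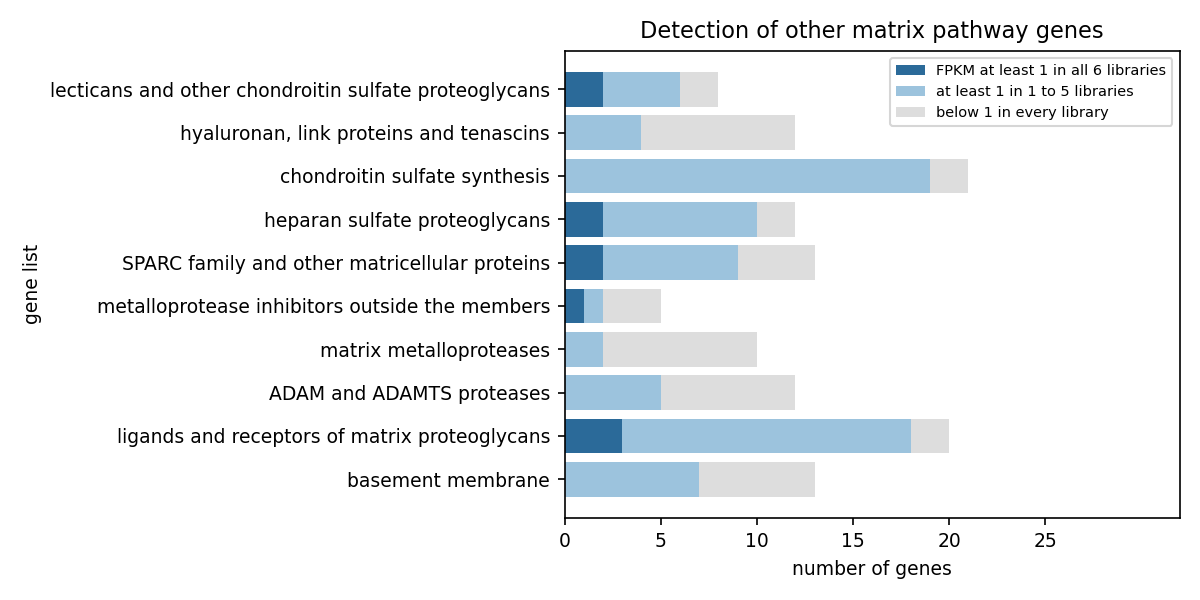
Number of genes (horizontal axis) in each of 10 lists of matrix biology (vertical axis) by detection. Dark bars are genes at FPKM 1 or more in all 6 libraries, light blue in some and grey in none; 10 of 126 genes are in the dark bars and 44 in the grey.

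The enzymes that TIMPs block include the matrix metalloproteases and several ADAM and ADAMTS proteases. Of 10 matrix metalloprotease genes 8 stayed under FPKM 1 throughout, and the filter kept none for the test. Mmp17, a membrane-anchored metalloprotease gene, had 18.8 FPKM in Run replicate 1 and 2.80 in Run replicate 2 and was listed at 0 elsewhere. Mmp16, also membrane-bound, had 17.9 FPKM in NR replicate 2 and at most 0.00779 elsewhere. Among 12 ADAM and ADAMTS genes, 7 were below 1 in every library, 3 were tested, and 1 difference was positive. Adam10, a protease that cuts many membrane proteins, had 0, 21.2 and 0 FPKM across NR and 13.0, 36.0 and 55.4 across Run (difference 3.46 ± 1.64 SE; limma adjusted p = 0.978). Adam15 had 0.00845, 5.30 and 14.3 across NR and 0, 32.4 and 0 across Run. Adamts1, which cleaves lecticans, had 21.8, 15.1 and 5.96 across NR and 62.8, 0.0109 and 34.5 across Run. The inhibitors Reck and Cst3, the second a blocker of cysteine rather than metalloproteases, had differences of 1.73 and -0.14, and neither passed.

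Matrix proteins beyond the members gave few tested genes. Biglycan (Bgn) had 69.8, 61.3 and 68.8 FPKM across NR and 0.0928, 73.6 and 11.8 across Run, a difference of -2.74 ± 1.56 (SE; limma adjusted p = 0.978). App and Aplp2, membrane proteins with chondroitin sulfate forms, had differences of -0.65 and -0.36, so 3 of 3 tested in that list were negative and none passed. The syndecans Sdc2 and Sdc4, heparan sulfate proteoglycans of the cell surface, had 0.42 and 0.16 and were the 2 tested of their list. Sdc4 had 203, 61.7 and 131 FPKM across NR and 54.3, 332.5 and 126 across Run, with its lowest value in Run replicate 1 and its highest in Run replicate 2, as for Sparcl1 and Bcan. Among 6 tested matricellular genes 4 differences were positive, and none passed. Spock3, Ccn2 and Thbs4 had the smallest p, with differences of 1.92, 1.31 and 0.34. Tenascin-C (Tnc), the 1 gene tested among hyaluronan, link protein and tenascin genes, had 0, 8.25 and 20.4 FPKM across NR and 0, 16.1 and 0 across Run. Of basement membrane genes 3 of 13 were tested, all with negative differences that did not pass: Fn1 at -2.01, Lamb2 at -1.63 and Lamc1 at -1.05. Of 11 tested ligands and receptors of proteoglycans 3 differences were positive and 8 negative. After Cntn1, the smallest p among these were those of Dag1 (0.78) and Itgav (-1.11), which did not pass.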

How the data were processed

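The authors deposited FPKM values in 1 table with 6 library columns. Trimmomatic 0.39, STAR 2.7.5c, StringTie 2.1.7, DESeq2 and edgeR are named without roles, and mm10 as the genome build, per the submitters' processing notes. The sources used here do not give the annotation. Depth is unknown: for genes with 1 annotated transcript, 15.7% to 17.4% of low values lay within 0.05 of a whole multiple of the best trial step for 1 read, so reads were not recovered. PCR copies were not marked by molecular identifiers.

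Groups came from the sample titles. Differences were tested with limma 3.58.1 (R 4.3.3) on log2(FPKM + 1) with a mean-variance trend, 2-sided, Benjamini-Hochberg adjusted over the 6155 genes that reached FPKM 1 in 3 or more libraries, at a threshold of 0.05. Differences are Run minus NR and understate changes of low genes. Means ± SD are given for genes at FPKM 1 or more in all 6 libraries. The fit was also run on simulated data with normally distributed noise on the log2 scale, from which nothing is concluded here. Coordinates are from GENCODE M21 (mm10), which held 53289 (96.2%) of the symbols. Named beside the members are up to 3 tested genes of each list with the smallest p, and the 5 genes nearest in profile. For oligodendrocyte precursors and for mural and fibroblast cells, the 3 markers of highest mean FPKM are named. Markers of the other cell types were not named by this rule. Acan, Hapln4, Pvalb, Tnr, Timp1, Ptn, Mdk, Mmp16, Mmp17, C1ql1, Vtn, Olig2, Pdgfra, Sox10, Cspg4, Syn2 and Syn3 were added after their values were seen. The members and lists were chosen with earlier results of these data known. The alternatives were 2 pseudocounts, 2 filters, 2 scalings, no trend, a replicate block and leaving out each library. Python 3.11.15 drew the plots.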

Additional observations from a re-analysis of the deposited data

How the results depend on the processing

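In each of 14 alternatives to the processing, 0 members and 0 genes passed by limma. Differences of Sparc, Ncan, Ptprz1, Timp2, Timp3 and Hapln1 kept their sign in every alternative that tested them. Of 137 member values under the alternatives 9 changed sign. Cspg5 was 0.028 with a pseudocount of 10. Leaving out 1 library at a time, the differences ranged from -0.59 to 0.33 for Sparcl1, -0.60 to 0.44 for Bcan, -1.02 to 1.11 for Cspg5 and -0.64 to 0.48 for Timp4. They ranged from 0.061 to 0.65 for Sparc, -2.90 to -0.09 for Ncan, 2.24 to 3.62 for Ptprz1, -3.33 to -0.47 for Timp2, -1.60 to -0.42 for Timp3 and 0.0074 to 1.71 for Hapln1, and the members' median from -0.60 (without Run replicate 2) to 0.30 (without Run replicate 1). Over all alternatives Ptprz1 ranged from 1.60 to 3.62, with limma adjusted p of at least 0.582. The count of members at a limma unadjusted p under 0.05 was 1 (Ptprz1) with no filter and without the trend. It was also 1 (Ptprz1) with the filter of FPKM 1 in all 6 libraries. When libraries were left out it was 0 to 1, the 1 being without NR replicate 2. Over all tested genes the count was 404 of 17361 with no filter and 334 of 6155 without the trend. It was 365 of 6155 without NR replicate 2 and 82 of 1751 with the filter of FPKM 1 in all 6 libraries. That filter, which tested 1751 genes and 7 members, gave 34 genes higher and 26 lower in Run past an unadjusted p of 0.05 and a log2 size of 1, against 149 and 152. Leaving out libraries gave 131 to 226 higher and 136 to 221 lower. That filter also left fewer genes to test, and the cause of these changes was not tested. Scaling moved the median of all genes from -0.03 to 0.01 (quantile normalization) and to -0.06 (FPKM rescaled to a common sum).

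Same-numbered libraries did not deviate together (correlations over genes 0.021, 0.0042 and 0.018), although each correlated best with its own number, a hint from the data and not the design. Correlations this near 0 cannot settle whether the numbers pair the libraries, and the main test did not pair them. With a replicate block, 0 members passed, Ptprz1 was 2.73 and the median -0.15, with 116 genes higher and 132 lower. Depth per gene is unknown, so values near 0 carry unknown counting error.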
